A study of Mus musculus with 9 samples.

Results

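A set of 40 genes of sterol and fatty acid synthesis was followed through 9 RNA-seq libraries of 4T1 cells, a mouse mammary carcinoma line. The set was fixed by name and holds 8 genes of the mevalonate pathway, 10 later enzymes of sterol synthesis, the branch-point gene Ggps1, 5 genes of the proteins that control the pathway, 7 genes of sterol transport and storage, and 9 genes of fatty acid synthesis. All 40 were found among the 24067 genes of the deposited table, 39 by their current symbol and Msmo1 by its older one, Sc4mol. The mevalonate and later sterol genes together are called the sterol synthesis arm (18 genes) and the fatty acid genes the fatty acid arm (9 genes).

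The 9 libraries are grouped by their titles into 3 of clone 3, 3 of clone 2 and 3 of control, all 4T1 cells with a stably kept plasmid under Zeocin selection. Clone 3 and clone 2 are labelled as overexpressing the microRNA miR-204-5p, on average 525-fold and 150-fold above control, and control carries a control plasmid. Each labelled overexpressing group is 1 clone, so the effect of the microRNA and the identity of the clone cannot be told apart within a title comparison, and the labels do not say whether the 3 libraries of a title came from separate cultures, so p-values measure the spread between these libraries. A second label, the code in the description, cuts across the titles: each title has 1 library coded C-26, 1 coded C-20 and 1 coded NTC. The labels do not explain the codes. The authors' deposited table of comparisons names test and control groups and no code. Its group means equal the means of the codes, by which it sets C-20 and C-26 against NTC. The members are therefore described by title and by code. The gene Mir204 itself is listed at 0 FPKM in all 9 libraries, and since libraries of poly(A) RNA do not read a mature microRNA, this value checks no label.

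Cells build cholesterol from acetyl-CoA through mevalonate, farnesyl diphosphate and squalene, and build fatty acids from the same acetyl-CoA through malonyl-CoA. Both routes are driven by the SREBP transcription factors, which the genes Srebf1 and Srebf2 encode. When membrane sterol is low, the escort protein Scap carries SREBP to the Golgi for cleavage, and when sterol is high, the Insig proteins hold Scap in the endoplasmic reticulum. In mammary epithelium the fatty acid route is known for its use in milk fat, and many carcinomas keep it active.

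The microRNA named in the labels is shown first, because the clones are labelled by it. Its mature sequence (RefSeq, GRCm38.p6, chr19:22750610-22750631, plus strand) is given with the seed, bases 2 to 8, in capitals.
mmu-miR-204-5p: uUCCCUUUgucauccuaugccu
The full seed match followed by A (AAAGGGAA, called an 8mer site) occurred in the 3′ UTR of 5 of the 40 members, 12.5%, against 6.77% of 20384 genes with an annotated 3′ UTR. The seed match with or without the A occurred in 8 members, 20%, against 15.9% of those genes. The 5 members with an 8mer site are Acat2, Acat3, Lss, Soat1 and Elovl6, and each site is printed below with its flanks and the 8mer in capitals.
Acat2 and Acat3: acactaagcagAAAGGGAAaccagaggacc
Lss: gcttcagtgagAAAGGGAAgaagatgagcc
Soat1: gtcagaagtagAAAGGGAAaaaagacattt
Elovl6: atgcagaactgAAAGGGAAgaagctcagct
Acat2 and Acat3, counted separately above, have the site at the same base of the 3′ UTR (59) with the same flanks. The longest 3′ UTR of each gene was searched, and the shares were not matched for its length. A match is only a run of letters and was not tested as a site of action. Between clone 3 and control, Lss was higher (log2 difference 1.17), while Acat2 (1.38 ± 0.55, SE), Acat3 (1.16 ± 0.44), Soat1 (0.30 ± 0.15) and Elovl6 (-0.29 ± 0.38) did not pass the test.

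Promoters of 29 of the 40 members were found in the RefSeq windows of 250 bases before to 50 bases after a start site, in 37 windows. Both strands were searched for CCAAT (the box bound by NF-Y, a partner of SREBP), for TCACNCCAC (the core of a sterol regulatory element), for GGGCGG (the box bound by Sp1) and for CACGTG (an E-box). CCAAT was in 64.9% of member windows, against 37.4% of all 32851 windows, and in 76.5% of the 17 windows of the sterol synthesis arm and 50% of the 6 windows of the fatty acid arm. GGGCGG was in 75.7% of member windows, against 35.7% of all windows, and CACGTG was in 16.2%, against 7.15%. The sterol regulatory element core was in 1 member window, that of Hmgcs1, its first base at −137 from the start site, against 1.24% of all windows. The 3 windows below are printed (GRCm38.p6, 5′ to 3′ on the gene's strand, with TCACNCCAC and CCAAT on either strand in capitals): Hmgcs1 for the element core, Mvk for its 5 CCAAT boxes, the most of any member window, and Fasn for the fatty acid arm.
Hmgcs1 (chr13:119690101-119690400, plus strand): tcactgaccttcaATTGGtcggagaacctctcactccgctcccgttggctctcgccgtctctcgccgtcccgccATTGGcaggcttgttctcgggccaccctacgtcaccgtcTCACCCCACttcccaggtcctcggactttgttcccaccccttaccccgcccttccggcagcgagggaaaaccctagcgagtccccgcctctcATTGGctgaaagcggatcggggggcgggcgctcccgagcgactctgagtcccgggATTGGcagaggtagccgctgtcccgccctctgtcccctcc
Mvk (chr5:114444019-114444318, plus strand): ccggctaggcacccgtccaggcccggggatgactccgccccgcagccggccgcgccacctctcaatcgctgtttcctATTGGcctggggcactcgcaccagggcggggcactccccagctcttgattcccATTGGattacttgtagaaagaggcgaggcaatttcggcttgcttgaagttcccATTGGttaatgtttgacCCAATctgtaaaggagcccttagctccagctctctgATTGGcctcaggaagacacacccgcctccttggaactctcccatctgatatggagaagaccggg
Fasn (chr11:120824498-120824797, minus strand): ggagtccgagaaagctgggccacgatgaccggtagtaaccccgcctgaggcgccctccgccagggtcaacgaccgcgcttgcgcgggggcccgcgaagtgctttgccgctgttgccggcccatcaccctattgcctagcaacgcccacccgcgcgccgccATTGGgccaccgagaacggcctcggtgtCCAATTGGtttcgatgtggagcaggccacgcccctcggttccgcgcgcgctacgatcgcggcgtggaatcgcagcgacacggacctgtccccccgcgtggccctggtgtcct

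Levels are fragments per kilobase of transcript, scaled to the mapped fragments of the library (FPKM), so that they can be set beside each other between genes. For tests, log2(FPKM + 1) of the 10783 genes at 1 FPKM or more in at least 3 libraries was fitted with limma over all 9 libraries, and a gene was called at an adjusted p (Benjamini-Hochberg, over all tested genes) below 0.05. A log2 difference below is always on the log2(FPKM + 1) scale, which understates the change of low genes. Of the 40 members 38 passed the filter, and the sterol exporters Abca1 (0.00172 to 0.067 FPKM) and Abcg1 (0.178 to 0.793 FPKM) did not. The members that reached the highest values in any library were Fdps (40 to 354 FPKM), Scd2 (60.2 to 347 FPKM), Fasn (20.4 to 134 FPKM) and Acly (54.8 to 131 FPKM). By the median over the 9 libraries, Npc2 (76.9 FPKM) stood above Acly (72.7 FPKM) and Fasn (54.6 FPKM).

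The 38 tested members moved largely together from library to library. The library titled control and coded NTC had the lowest value of all 9 for 25 of the 38, and the clone 2 library coded C-20 for 8. The highest value was in the clone 3 library coded C-26 for 15 members and in the clone 3 library coded C-20 for 12. The members' summed FPKM made up 0.105% of all FPKM in the control library coded NTC, 0.161% to 0.225% in clone 2, and 0.291% to 0.42% in clone 3. The control libraries coded C-20 and C-26 stood at 0.334% and 0.255%, so that the control group covers most of the range.

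**Figure D1:**
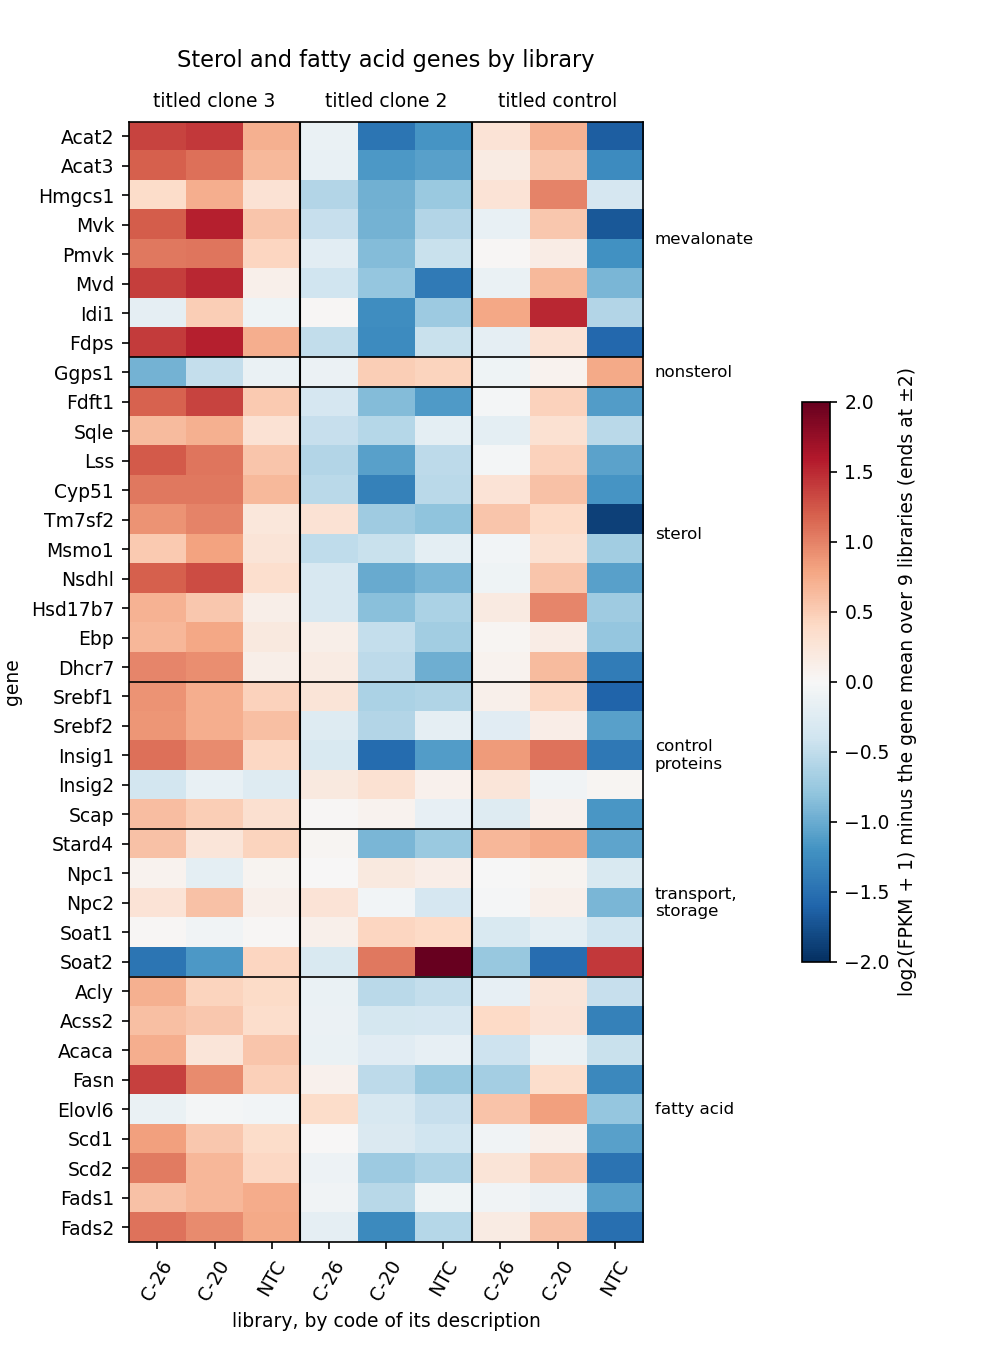
Level of each of the 38 tested members (rows, grouped by role) in each of the 9 libraries (columns, by title and by description code), as log2(FPKM + 1) minus the gene's mean over the 9 libraries. Most rows are red across the 3 clone 3 columns and blue in the control column coded NTC and in the clone 2 columns coded C-20 and NTC, while Soat2 and Ggps1 run the other way.

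The library at the low end of the members differed in other respects too. Summed over 8 epithelial marker genes, the control library coded NTC had 387 FPKM, against 886 to 1590 FPKM in the other 8 libraries. Krt8 (86.7 FPKM) and Krt18 (191 FPKM) gave most of its sum. Cldn3 was not lowest there (20.9 FPKM, against 9.38 FPKM in the control library coded C-26), while each other marker was. All 8 markers had a positive log2 difference between clone 3 and control with 0 called. The hepatocyte markers of the control library coded NTC summed to 7.91 FPKM, of which Alb gave 5.15 FPKM, against 0.0338 to 0.226 FPKM in the others. Adipocyte markers summed to 2.14 FPKM or less in every library, fibroblast markers to between 1.48 and 8.1 FPKM and leukocyte markers to between 4.73 and 11.9 FPKM. Pdgfra alone (1.15 to 7.48 FPKM) gave most of the fibroblast sum, and Cd68 alone (4.58 to 11.2 FPKM) most of the leukocyte sum. Genes above 0 numbered 14883 to 18283 per library, and 1.03% to 16.4% of 1453 olfactory and vomeronasal receptor genes were above 0, the lowest shares in clone 3. The part of these differences in the results below was not tested. The files hold no counts, so absolute depth is unknown, and in bulk RNA fewer cells of a type and less RNA per cell cannot be told apart.

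The first question was whether the labelled overexpressing clones differ from control. In clone 3, 12 of the 38 tested members were higher than in control and 0 were lower by limma (at an unadjusted p below 0.05, 22 members were higher and 1 lower), while among all genes tested 7.44% were higher and 13.2% lower. The 12 were the mevalonate genes Mvk, Pmvk and Fdps, the squalene and lanosterol enzymes Fdft1 and Lss, the regulatory genes Srebf2 and Scap, and the fatty acid genes Acly, Acaca, Fasn, Scd1 and Fads1. The median log2 difference was 1.08 over the sterol synthesis arm and 0.93 over the fatty acid arm, against 0.09 over all tested genes. Clone 3 and control did not overlap for 21 of 38 members, 19 higher in clone 3 and 2 lower, against 21.9% and 18.8% of all tested genes.

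In clone 2, 0 of 38 members were called against control by limma in either direction, as were 0 of all 10783 tested genes (percent called 0), with 949 genes and 3 members at an unadjusted p below 0.05. All 18 genes of the sterol synthesis arm had a negative log2 difference, with a median of −0.53, and the median of the fatty acid arm was −0.05. The spread was wide, since the sterol arm of clone 2 stood above control in the NTC pair of libraries (0.36 in mean log2) and below it in the C-20 (−1.49) and C-26 (−0.37) pairs. Only Hmgcs1 was lower in clone 2 with no overlap, and only Soat1 higher, against 6.11% and 7.66% of all tested genes.

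Clone 3 was also set against clone 2, a comparison added after the data were seen. In it 19 members were higher in clone 3 and 0 lower by limma (26 higher and 2 lower at an unadjusted p below 0.05), against 6.03% and 12.8% of all tested genes. These were 13 of the 18 genes of the sterol synthesis arm (Acat2, Acat3, Hmgcs1, Mvk, Pmvk, Mvd, Fdps, Fdft1, Sqle, Lss, Cyp51, Msmo1 and Nsdhl), Srebf2, and 5 fatty acid genes (Acly, Acaca, Fasn, Fads1 and Fads2). The median log2 difference was 1.52 in the sterol synthesis arm and 0.90 in the fatty acid arm, against 0.04 over all tested genes. Both clone 3 comparisons share the clone 3 libraries and are given side by side, not as support for each other.

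**Figure D2:**
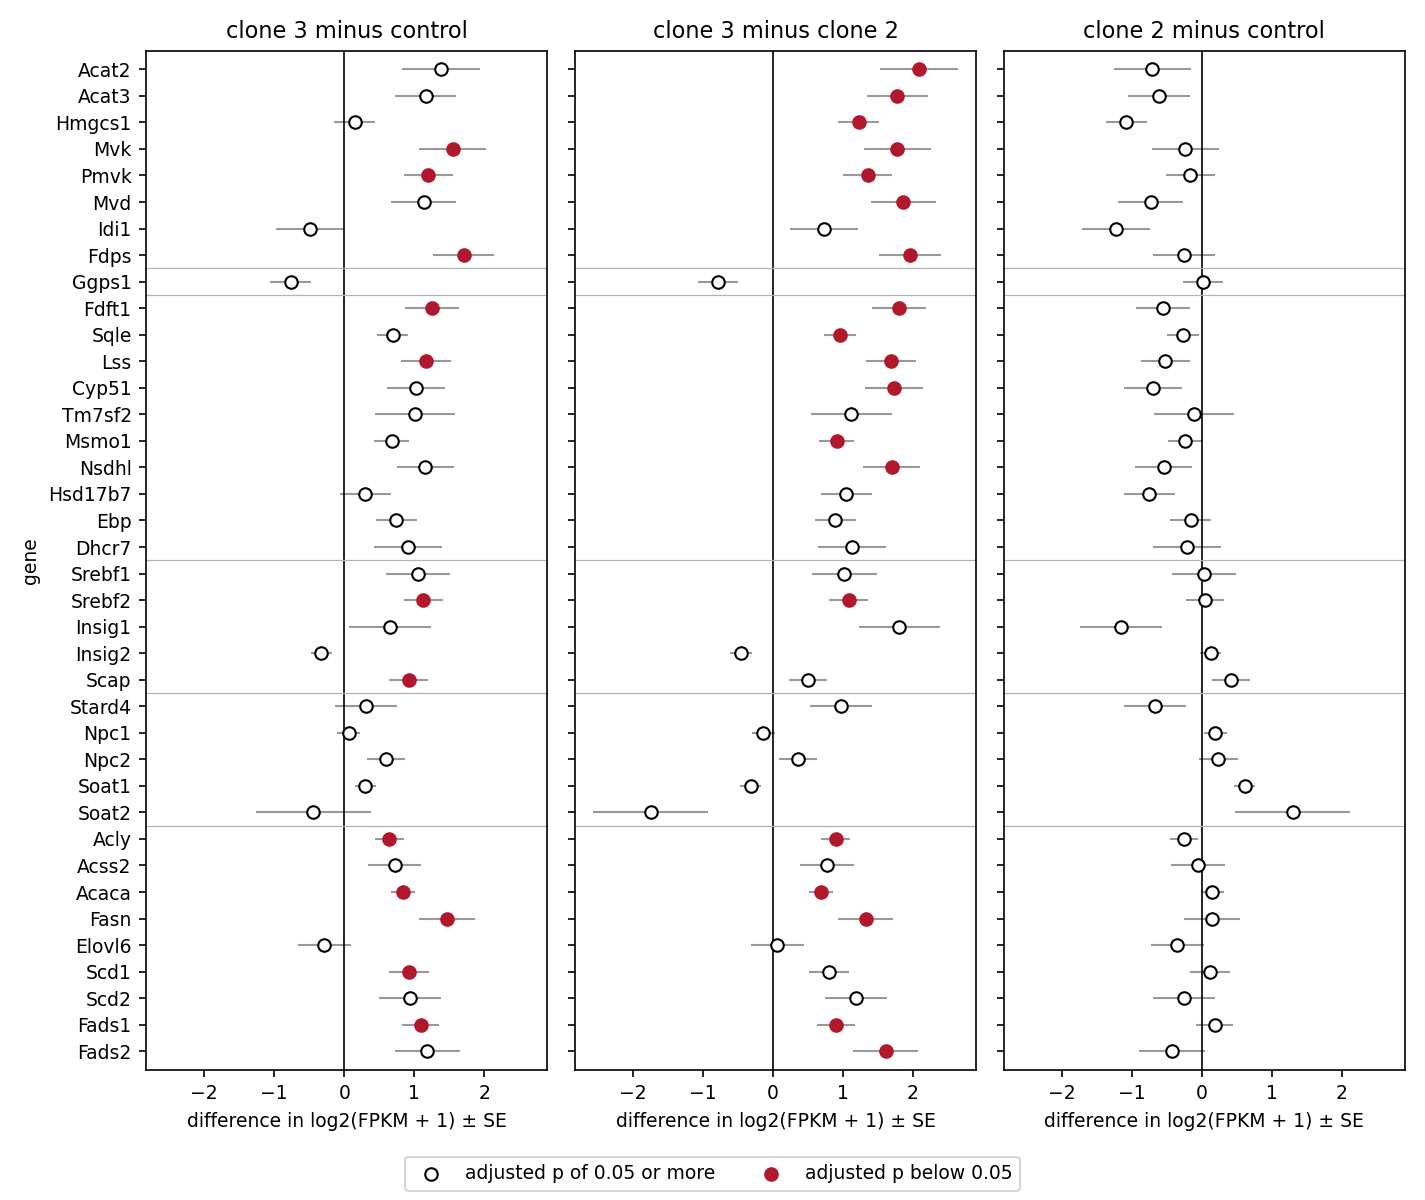
Difference in log2(FPKM + 1) for each tested member in the 3 title comparisons, with bars of 1 SE from limma. Filled points passed the adjusted p threshold of 0.05: 12 members between clone 3 and control, 19 between clone 3 and clone 2, and 0 between clone 2 and control.

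These counts rest on few libraries. For clone 3 against control, 1 member was called without the clone 3 library coded C-20 or without the one coded C-26, 5 without the control library coded C-26 or the clone 2 library coded NTC, 6 and 7 without the clone 2 libraries coded C-20 and C-26, and 20 without the control library coded C-20. With a correction for transcript length and GC content 5 members were called (Srebf2, Soat1, Acaca, Fasn and Scd1). Of these, Soat1 was not called without the correction. With no filter on low values 3 members were called. For clone 3 against clone 2, 0 members were called without the clone 3 library coded C-26, 1 without the clone 3 or the clone 2 library coded C-20, 6 without the clone 2 library coded NTC and 32 without the control library coded NTC. Acaca kept its call between clone 3 and control in all 15 alternatives to the fit without a block.

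In the paragraphs that follow, the 3 values of a title group are those of its libraries coded C-26, C-20 and NTC, in that order. Among the mevalonate genes, Fdps, which makes farnesyl diphosphate (GRCm38.p6, chr3:89093588-89101967), had 319, 354 and 199 FPKM in clone 3, 85.2, 49.6 and 88 FPKM in clone 2 and 106, 148 and 40 FPKM in control. All 3 clone 3 libraries lay above the 6 others, and the mean was 291 ± 81.3 FPKM in clone 3 against 98.2 ± 54.6 FPKM in control (SD, n = 3 each). The log2 difference was 1.70 ± 0.44 (SE, adjusted p = 0.022) between clone 3 and control. Mvk, mevalonate kinase, had 23.1, 29.8 and 14.4 FPKM in clone 3, 6.58, 4.41 and 5.96 FPKM in clone 2 and 8.43, 14.2 and 2.22 FPKM in control, again with the clone 3 libraries above all others. Its difference between clone 3 and control was 1.55 ± 0.48 (SE, adjusted p = 0.046), and the control library coded NTC was lowest. Pmvk, the next kinase, had 50.4, 51.3 and 32.4 FPKM in clone 3, 20.5, 12.6 and 17.3 FPKM in clone 2 and 24.3, 26.4 and 9.76 FPKM in control. The difference between clone 3 and control was 1.20 ± 0.35 (SE, adjusted p = 0.036), with no overlap.

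Mvd, which decarboxylates mevalonate diphosphate, had 27.3, 29.9 and 10.6 FPKM in clone 3, 7.19, 5.36 and 3.08 FPKM in clone 2 and 8.85, 16 and 4.77 FPKM in control. Its clone 3 library coded NTC fell inside the range of control, and the difference was 1.86 ± 0.46 (SE, adjusted p = 0.020) against clone 2 and 1.13 ± 0.46 (SE, adjusted p = 0.107) against control. Hmgcs1, the HMG-CoA synthase whose promoter holds the element core, had 24.4, 31.6 and 23.2 FPKM in clone 3, 12.1, 9.11 and 10.8 FPKM in clone 2 and 22.8, 38.1 and 14.7 FPKM in control. Here clone 2 was the group that stood apart, below all libraries of both other titles, and clone 3 overlapped control. The difference of clone 3 was 1.22 ± 0.29 (SE, adjusted p = 0.018) against clone 2 and 0.15 ± 0.29 (SE, adjusted p = 0.743) against control. That between clone 2 and control, -1.07 ± 0.29 (SE, adjusted p = 0.372), was not called. Idi1, the isopentenyl diphosphate isomerase, was the member of the arm that departed most from the others, with 15.2, 24.6 and 16.3 FPKM in clone 3, 17.6, 6.71 and 10.1 FPKM in clone 2 and 30.4, 51.2 and 11.2 FPKM in control. Its 2 highest libraries were both titled control, and its difference between clone 3 and control was -0.49 ± 0.49 (SE, adjusted p = 0.496), not called.

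Acat2 and Acat3, cytosolic thiolases that join 2 acetyl-CoA, gave 102, 106 and 64.6 FPKM in clone 3, 35.6, 13.6 and 16.7 FPKM in clone 2 and 47.8, 64.5 and 11.8 FPKM in control for Acat2. Acat3 had 11.3, 10.5 and 7.38 FPKM in clone 3, 3.86, 1.41 and 1.54 FPKM in clone 2 and 5, 6.84 and 1.24 FPKM in control. The coding sequences of the 2 genes are 97.74% identical, their 3′ UTR sites share the same flanks, and the ratio of Acat2 to Acat3 was 8.75 to 10.9 in all 9 libraries, so reads could have been split between them and the Acat3 values are uncertain. Acat2 was called between clone 3 and clone 2, at 2.09 ± 0.55 (SE, adjusted p = 0.027), and not between clone 3 and control, at 1.38 ± 0.55 (SE, adjusted p = 0.103).

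Ggps1, which diverts farnesyl diphosphate to geranylgeranyl diphosphate for protein prenylation, ran against its neighbours. It had 2.92, 4.41 and 5.88 FPKM in clone 3, 5.93, 9.58 and 9.25 FPKM in clone 2 and 6.09, 6.89 and 11.8 FPKM in control. Clone 3 lay below both other groups with no overlap, but the difference between clone 3 and control, -0.77 ± 0.29 (SE, adjusted p = 0.084), was not called and became 0.14 after the correction for length and GC content.

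Among the later sterol enzymes, Fdft1, squalene synthase, had 32.5, 36.9 and 20.2 FPKM in clone 3, 10.7, 7.12 and 5.76 FPKM in clone 2 and 13.4, 19.4 and 5.82 FPKM in control. The clone 3 libraries were the 3 highest, and the difference between clone 3 and control was 1.25 ± 0.39 (SE, adjusted p = 0.045). In the annotation Fdft1 overlaps the protein-coding gene Ctsb. Likewise Acat3 overlaps Tcp1, Tm7sf2 overlaps Vps51, Srebf1 overlaps Rai1, Npc1 overlaps Rmc1, and Acaca overlaps Tada2a and Gm11437. Whether the counting used strand is not given. Lss, which closes the ring to lanosterol, had 51.5, 46 and 31.9 FPKM in clone 3, 14, 9.51 and 14.6 FPKM in clone 2 and 20.8, 29.7 and 9.72 FPKM in control, with clone 3 above all others and a difference between clone 3 and control of 1.17 ± 0.35 (SE, adjusted p = 0.041). Sqle, the squalene epoxidase that is a rate-setting step, had 65.1, 69 and 51.1 FPKM in clone 3, 30, 27.7 and 36.2 FPKM in clone 2 and 36.3, 51.6 and 28.3 FPKM in control. The clone 3 library coded NTC and the control library coded C-20 overlapped, and Sqle was called against clone 2, at 0.96 ± 0.23 (SE, adjusted p = 0.017), and not against control, at 0.69 ± 0.23 (SE, adjusted p = 0.055).

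Cyp51, the lanosterol demethylase, had 27.5, 27.4 and 20.4 FPKM in clone 3, 8.45, 4.37 and 8.48 FPKM in clone 2 and 15.5, 19.6 and 5.05 FPKM in control. Its clone 3 libraries were the 3 highest, and it was called against clone 2 only, at 1.72 ± 0.41 (SE, adjusted p = 0.018). Nsdhl, which acts in C4 demethylation, had 16.6, 18 and 8.67 FPKM in clone 3, 5.15, 2.81 and 3.06 FPKM in clone 2 and 6.18, 10.3 and 2.61 FPKM in control. Its difference was 1.70 ± 0.41 (SE, adjusted p = 0.018) against clone 2 and 1.16 ± 0.41 (SE, adjusted p = 0.068) against control, where it overlapped. Msmo1, the C4 methyl oxidase, had 72.3, 88.2 and 60.1 FPKM in clone 3, 35, 36.7 and 43.6 FPKM in clone 2 and 48.2, 62 and 30.7 FPKM in control. The difference was 0.91 ± 0.25 (SE, adjusted p = 0.031) against clone 2 and 0.67 ± 0.25 (SE, adjusted p = 0.080) against control.

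Some enzymes of the last steps of the route passed no test by title in the fit without a block. Tm7sf2, a sterol C14 reductase, had 11.1, 11.9 and 6.55 FPKM in clone 3, 6.88, 2.96 and 2.7 FPKM in clone 2 and 8.54, 7.56 and 0.781 FPKM in control. Ebp, the sterol isomerase, had 14.1, 15.3 and 10 FPKM in clone 3, 9.42, 5.86 and 4.93 FPKM in clone 2 and 8.8, 9.58 and 4.61 FPKM in control, and Dhcr7, the final reductase to cholesterol, had 24, 23.3 and 12.8 FPKM in clone 3, 13.3, 7.8 and 5.46 FPKM in clone 2 and 12.3, 18.8 and 3.82 FPKM in control. Between clone 3 and control the differences were 1.01 for Tm7sf2 (SE 0.57, adjusted p = 0.235), 0.74 for Ebp (SE 0.29, adjusted p = 0.099) and 0.91 for Dhcr7 (SE 0.49, adjusted p = 0.206). The clone 3 libraries of Ebp lay above all 6 others, and for Dhcr7 and Tm7sf2 the clone 3 and control libraries overlapped. Hsd17b7, a 3-ketosteroid reductase, ranged from 1.98 to 9.55 FPKM with its highest value in the control library coded C-20, and was not called.

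Among the regulatory genes, Srebf2, which encodes the SREBP most tied to sterol genes, had 67.1, 60.4 and 55 FPKM in clone 3, 29.9, 23.5 and 31.6 FPKM in clone 2 and 30.6, 39.4 and 16.5 FPKM in control. All 3 clone 3 libraries were above all 6 others, and the difference between clone 3 and control was 1.13 ± 0.27 (SE, adjusted p = 0.017). Srebf1, whose product is more tied to fatty acid genes, had 45.5, 40.2 and 33.2 FPKM in clone 3, 28.7, 15 and 15.5 FPKM in clone 2 and 25.7, 32.1 and 7.23 FPKM in control. It also had no overlap between clone 3 and the rest, and its difference from control, 1.06 ± 0.46 (SE, adjusted p = 0.128), was not called. The ratio of Srebf1 to Srebf2 was 0.604 to 0.678 in clone 3, 0.49 to 0.958 in clone 2 and 0.437 to 0.841 in control. Scap, the escort protein, had 58.7, 54 and 47.7 FPKM in clone 3, 38.6, 39.9 and 33.8 FPKM in clone 2 and 31.7, 40.4 and 16.5 FPKM in control, higher in clone 3 than in control by 0.92 ± 0.27 (SE, adjusted p = 0.039).

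The pair of Insig genes, whose proteins hold Scap back, behaved differently from each other. Insig1 had 37.8, 33.8 and 23.3 FPKM in clone 3, 13.7, 5.27 and 7.36 FPKM in clone 2 and 31.7, 37.6 and 5.71 FPKM in control. Insig2 had 12, 14.1 and 13 FPKM in clone 3, 18.2, 19.7 and 16.9 FPKM in clone 2 and 18.8, 15 and 16.3 FPKM in control. Insig1 spanned a 7.17-fold range over the 9 libraries and Insig2 a 1.64-fold range, so the ratio of Insig1 to Insig2 was 1.79 to 3.15 in clone 3, 0.268 to 0.751 in clone 2 and 0.351 to 2.51 in control. Insig1 is itself a known SREBP target gene. Insig1 differed by 1.81 ± 0.58 (SE, adjusted p = 0.055) between clone 3 and clone 2 and Insig2 by -0.46 ± 0.15 (SE, adjusted p = 0.060), neither called.

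Storage genes gave the member that ran most against the rest. Soat2 (GRCm38.p6, chr15:102150415-102163469), one of 2 enzymes that esterify cholesterol for storage and the form of liver and intestine, had 0.124, 1.5 and 0.826 FPKM in C-26, 0.388, 5.41 and 0.0783 FPKM in C-20 and 3.14, 14.1 and 7.25 FPKM in NTC, the 3 values of each code being those titled clone 3, clone 2 and control. Every title had its highest Soat2 value in the library coded NTC. Soat1, the widely expressed form, had 22, 23.4 and 17.3 FPKM in C-26, 20.6, 29.6 and 18.7 FPKM in C-20 and 22.1, 28.8 and 16.2 FPKM in NTC, a range of 1.83-fold over all 9 libraries. The ratio of Soat1 to Soat2 was 7.04 to 178 in clone 3, 2.05 to 15.6 in clone 2 and 2.23 to 238 in control, and the coding sequences are 60.2% identical. Soat1 was highest in clone 2, with no overlap with either other title, and its difference between clone 2 and control, 0.62 ± 0.15 (SE, adjusted p = 0.324), was not called.

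**Figure D3:**
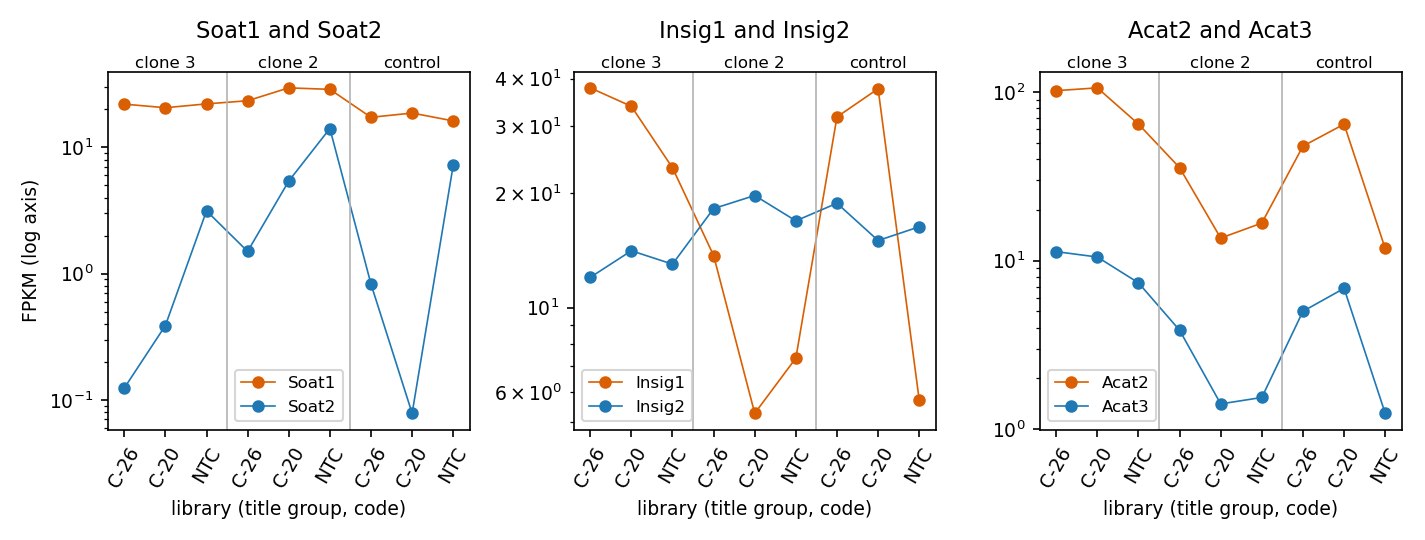
FPKM (log axis) of 3 pairs of related genes in the 9 libraries, ordered by title group and code. Soat2 spans 0.0783 to 14.1 FPKM while Soat1 stays between 16.2 and 29.6 FPKM, Insig1 crosses Insig2, and Acat2 and Acat3 run in parallel at a ratio of 8.75 to 10.9. Lines only join the libraries of a gene and carry no order.

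The other transport genes were not called by title without a block. Npc1, which exports cholesterol from lysosomes, had 3.22 to 4.94 FPKM, a range of 1.53-fold. Npc2, its soluble partner, had 87.1, 108 and 76.9 FPKM in clone 3, 86.9, 68.9 and 56.7 FPKM in clone 2 and 70.9, 77.1 and 37.6 FPKM in control, with a difference of 0.59 ± 0.28 (SE, adjusted p = 0.151) between clone 3 and control. Stard4, a cytosolic sterol carrier, had 8, 6.1 and 7.17 FPKM in clone 3, 5.13, 2.16 and 2.56 FPKM in clone 2 and 8.5, 9 and 1.87 FPKM in control. Its clone 3 libraries lay above all clone 2 libraries and overlapped control, and the difference between clone 3 and clone 2 was 0.97 ± 0.44 (SE, adjusted p = 0.145).

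In the fatty acid arm, Fasn, the synthase itself, had 134, 99.7 and 72.1 FPKM in clone 3, 54.6, 35.6 and 30.3 FPKM in clone 2 and 31.9, 66 and 20.4 FPKM in control. The clone 3 libraries were the 3 highest, the mean being 102 ± 31.1 FPKM in clone 3 against 39.4 ± 23.7 FPKM in control (SD, n = 3 each), and the difference was 1.47 ± 0.40 (SE, adjusted p = 0.027). Acaca (GRCm38.p6, chr11:84129635-84401651), which makes malonyl-CoA and sets the rate, had 29.2, 20.5 and 25.9 FPKM in clone 3, 15.7, 14.6 and 15.3 FPKM in clone 2 and 12.7, 15.6 and 12.4 FPKM in control. It had the lowest adjusted p of the members between clone 3 and control, at 0.84 ± 0.17 (SE, adjusted p = 0.0078), and the 6 other libraries lay within 12.4 to 15.7 FPKM. Acly, which cuts citrate to acetyl-CoA, had 131, 109 and 104 FPKM in clone 3, 72.7, 54.8 and 57.1 FPKM in clone 2 and 70.8, 94.4 and 57.8 FPKM in control, and its difference of 0.64 ± 0.21 (SE) between clone 3 and control was called by a narrow margin (adjusted p = 0.04998).

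Of the 4 desaturase genes, Scd1 and Fads1 were called higher in clone 3 than in control, and Fads1 and Fads2 higher in clone 3 than in clone 2. Scd1, a stearoyl-CoA desaturase, had 54.2, 44.3 and 39.2 FPKM in clone 3, 30.2, 24.5 and 22.7 FPKM in clone 2 and 28.7, 32.5 and 13.7 FPKM in control, with a difference between clone 3 and control of 0.93 ± 0.29 (SE, adjusted p = 0.045). Scd2, the more abundant form, had 347, 268 and 226 FPKM in clone 3, 158, 102 and 110 FPKM in clone 2 and 201, 245 and 60.2 FPKM in control, and overlapped between clone 3 and control. The coding sequences are 89.8% identical, and the ratio of Scd1 to Scd2 was 0.156 to 0.173 in clone 3, 0.191 to 0.241 in clone 2 and 0.133 to 0.228 in control. Fads1, the delta-5 desaturase, had 37.3, 39.2 and 41.3 FPKM in clone 3, 23.2, 16.3 and 22.9 FPKM in clone 2 and 23.2, 22.4 and 10.9 FPKM in control, a difference between clone 3 and control of 1.09 ± 0.27 (SE, adjusted p = 0.017). Fads2, the delta-6 desaturase, had 104, 94.6 and 83.3 FPKM in clone 3, 42.6, 19.6 and 32.3 FPKM in clone 2 and 54.5, 73.3 and 16.5 FPKM in control, and differed between clone 3 and clone 2 by 1.61 ± 0.47 (SE, adjusted p = 0.038) and between clone 3 and control by 1.18 ± 0.47 (SE, adjusted p = 0.098).

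The remaining fatty acid genes were not called by title. Acss2, which makes acetyl-CoA from acetate, had 3.21 to 15.2 FPKM. Elovl6, an elongase, was the exception of its arm, with 9.32, 10.1 and 9.96 FPKM in clone 3, 13.7, 8.09 and 7.27 FPKM in clone 2 and 15.9, 19.1 and 5.66 FPKM in control, its 2 highest libraries being titled control. Idi1 in the sterol arm had the same feature.

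The sterol and fatty acid arms were compared as means of log2(FPKM + 1) over their genes in each library. The sterol synthesis arm averaged 4.83 ± 0.37 in clone 3, 3.405 ± 0.33 in clone 2 and 3.905 ± 0.85 in control (SD, n = 3 each). The fatty acid arm averaged 5.68 ± 0.16 in clone 3, 4.76 ± 0.26 in clone 2 and 4.84 ± 0.71 in control. Sterol minus fatty acid was −0.84 ± 0.29 in clone 3, −1.36 ± 0.07 in clone 2 and −0.94 ± 0.155 in control, so clone 2 had the lowest sterol arm relative to its fatty acid arm. All 3 clone 2 libraries (−1.29, −1.43 and −1.35) lay below all 3 control libraries (−0.95, −0.77 and −1.08) in this measure, and clone 3 and control overlapped. No p is given for a mean over genes that were chosen with earlier results known.

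**Figure D4:**
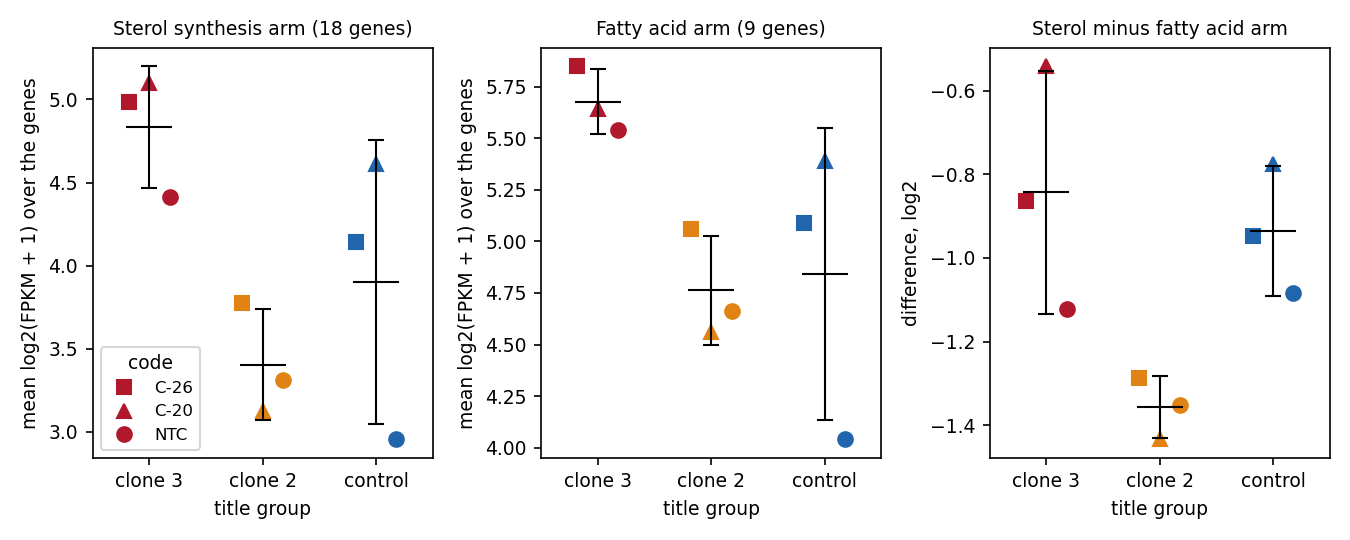
Mean log2(FPKM + 1) over the 18 genes of the sterol synthesis arm and over the 9 genes of the fatty acid arm, and their difference, for each library by title group. Symbols mark the description code, and the cross bar and error bar are the mean and SD of 3 libraries. Clone 3 has the highest mean in both arms, and clone 2 lies below control in the difference. In the sterol arm the control library coded C-20 (4.61) lies above the clone 3 library coded NTC (4.42).

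The second grouping asks how the codes differ. In limma without the title, 0 of 38 members were called between C-26 and NTC (0.139% of all tested genes were called, and 1794, of them 3 members, had an unadjusted p below 0.05) or between C-20 and NTC (0.0185% called, 834, of them 2 members, with an unadjusted p below 0.05). Libraries of 1 title deviated together, so the title was also fitted as a block. With it, 7 members were called between C-26 and NTC, 5 higher and 2 lower, beside 6.75% (higher) and 7.36% (lower) of the genes tested. With the title block 0 members were called between C-20 and NTC, where 0.306% of all tested genes were called and 2259, of them 15 members, had an unadjusted p below 0.05.

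The 5 members higher in C-26 than in NTC with the title block were 4 later sterol genes and Mvd of the mevalonate route. Tm7sf2 had 11.1, 6.88 and 8.54 FPKM in C-26, 11.9, 2.96 and 7.56 FPKM in C-20 and 6.55, 2.7 and 0.781 FPKM in NTC, with no overlap of the codes (10.8% of all tested genes were higher with no overlap) and a difference of 1.40 ± 0.35 (SE, adjusted p = 0.032). Dhcr7 had 24, 13.3 and 12.3 FPKM in C-26, 23.3, 7.8 and 18.8 FPKM in C-20 and 12.8, 5.46 and 3.82 FPKM in NTC, and a difference of 1.15 ± 0.27 (SE, adjusted p = 0.026). Both were highest in C-26 or C-20 in every title and lowest in NTC. Mvd differed by 1.02 ± 0.22 (SE, adjusted p = 0.021), Fdft1 by 0.84 ± 0.23 (SE, adjusted p = 0.039) and Ebp by 0.69 ± 0.19 (SE, adjusted p = 0.039). The 2 lower in C-26 were Soat2, at -2.22 ± 0.33 (SE, adjusted p = 0.0076), and Ggps1, at -0.74 ± 0.18 (SE, adjusted p = 0.026). Soat2 was lower in C-26 than in NTC in all 3 titles and its codes did not overlap, which was so for 12.4% of all tested genes. Its fold is not given, because its low values lie under 1 FPKM, where the pseudocount sets the log2 difference. Without the clone 2 library coded C-26 its adjusted p was 0.077. The count of 7 became 0 without the clone 2 library coded C-26, 1 without the clone 2 library coded NTC or without the 3 clone 3 libraries, 2 without the control or clone 3 library coded C-26 or the clone 3 library coded C-20, 11 without the clone 2 library coded C-20 and 16 without the control library coded C-20.

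Pair by pair, the code differences of the arms varied in size. In the C-26 minus NTC pairs the sterol synthesis arm differed by 0.57 in clone 3, 0.46 in clone 2 and 1.19 in control, and the fatty acid arm by 0.31 in clone 3, 0.40 in clone 2 and 1.05 in control. In the C-20 minus NTC pairs the sterol arm differed by 0.68 in clone 3, −0.185 in clone 2 and 1.66 in control, and the fatty acid arm by 0.10 in clone 3, −0.10 in clone 2 and 1.35 in control. Of the 18 sterol genes, 18 were positive in the C-20 minus NTC pair of clone 3, 5 in that of clone 2 and 18 in that of control. Higher in all 3 pairs were 24 of 38 members for C-26 over NTC and 10 for C-20 over NTC, against 24.8% and 18.9% of all tested genes. Each pair is 1 library against 1, with no replicate check. Both code comparisons share the NTC libraries, and the control library coded NTC is the low one described above.

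**Figure D5:**
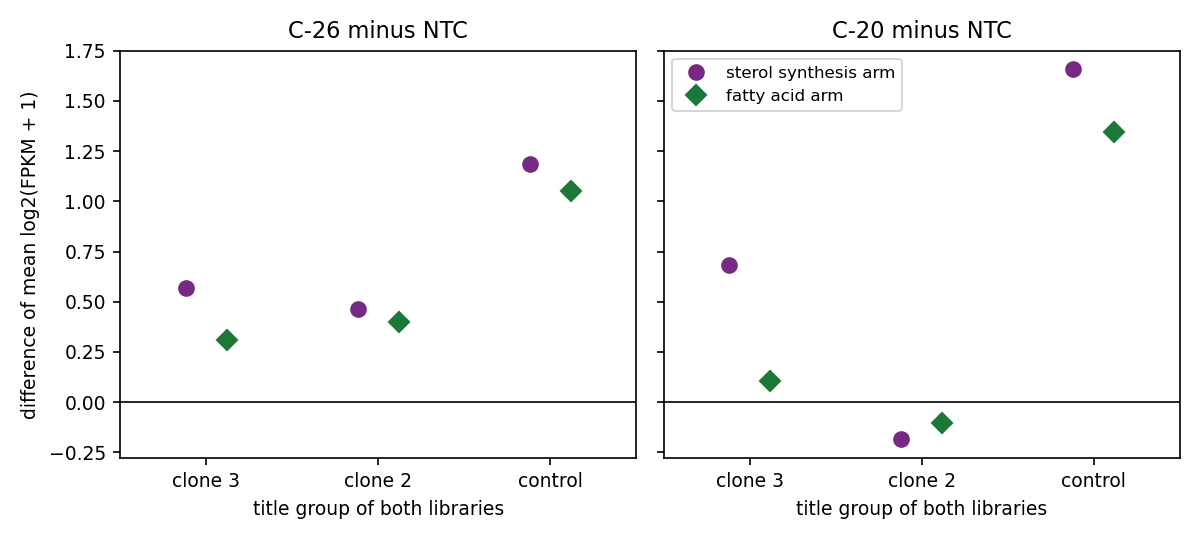
Difference in mean log2(FPKM + 1) of the sterol synthesis arm and the fatty acid arm between libraries of different code and the same title, C-26 minus NTC and C-20 minus NTC. Each point is 1 pair of libraries; all 6 points of C-26 minus NTC are above 0, the control pairs are the largest, and both clone 2 points of C-20 minus NTC are below 0.

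The authors' deposited table gave signed folds by code. For C-26 over NTC all 18 genes of the sterol synthesis arm were positive in the authors' deposited table, with folds of 1.15 to 2.52, and all 9 fatty acid genes were positive with 1.05 to 2.04. For C-20 over NTC the authors' deposited table had 18 of 18 sterol genes positive (1.25 to 2.17) and 8 of 9 fatty acid genes (−1.02 to 1.73, a negative sign marking a fold lower in C-20). The lowest adjusted p over the 40 members in the authors' deposited table was 0.554 for C-26 and 0.911 for C-20, and 0 members were below 0.05.

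Other genes of the pathways were taken from 2 wider lists of 20 sterol and 23 fatty acid genes. Between clone 3 and control, 3 of 17 tested genes of the sterol list were higher and 1 lower, and 4 of 20 of the fatty acid list were higher and 2 lower, against 7.44% (higher) and 13.2% (lower) of all tested genes. Scarb1, a receptor that takes up cholesterol from lipoproteins, was higher in clone 3 than in control by 0.79 ± 0.18 (SE, adjusted p = 0.013) and Mbtps1, a protease that cleaves SREBP, by 0.70 ± 0.21 (SE, adjusted p = 0.038). Mbtps2, the protease of the second cut, had 6.86, 6.58 and 11.2 FPKM in clone 3, 18.1, 26 and 22.1 FPKM in clone 2 and 19.6, 15.9 and 22.4 FPKM in control, lower in clone 3 than in control by -1.16 ± 0.23 (SE, adjusted p = 0.0062) and with no overlap.

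In the fatty acid list, Slc25a1, the mitochondrial citrate carrier that feeds Acly, had 91.1, 101 and 70.1 FPKM in clone 3, 39.6, 28.2 and 38 FPKM in clone 2 and 36.9, 50 and 12.6 FPKM in control, higher in clone 3 than in control by 1.56 ± 0.41 (SE, adjusted p = 0.024). Me1, which supplies NADPH, was higher by 0.75 ± 0.17 (SE, adjusted p = 0.012), Tecr, a reductase of elongation, by 0.82 ± 0.25 (SE, adjusted p = 0.041), and Agpat2, an acyltransferase of glycerolipid synthesis, by 0.70 ± 0.22 (SE, adjusted p = 0.046). Acsl4, which activates long-chain polyunsaturated fatty acids, had 9.83, 10.8 and 10.5 FPKM in clone 3, 56.1, 37.8 and 23.6 FPKM in clone 2 and 41.3, 42.6 and 17.5 FPKM in control, lower by -1.51 ± 0.36 (SE, adjusted p = 0.016), and Acsl3 was lower by -0.83 ± 0.17 (SE, adjusted p = 0.0076). Between clone 3 and clone 2, 4 of 17 were higher and 1 lower in the sterol list, and 3 of 20 higher and 1 lower in the fatty acid list, against 6.03% (higher) and 12.8% (lower) of all tested genes. Among those called there were Tmem97 (0.97), Scarb1 (0.92), Mbtps2 (-1.34), Me1 (0.74), Lpin1 (1.35), Agpat2 (0.74) and Acsl4 (-1.74), each value a log2 difference.

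Between C-26 and NTC with the title block, 2 of 17 genes of the sterol list were higher and 0 lower, and 3 of 20 of the fatty acid list were higher and 1 lower, against 6.75% (higher) and 7.36% (lower) of all tested genes. They were the lipases Lipa (0.75) and Lipe (0.92), then Acacb (0.63), Lpin1 (0.82) and Cpt1a (1.48), the carnitine transferase of fatty acid oxidation. Dgat2 (-0.61), a triglyceride synthase, was lower. Acacb reached 1 FPKM only in the libraries coded C-26 (1.64, 1.35 and 1.41 FPKM in clone 3, clone 2 and control). It thus passed the filter only through the group where it is high, and no conclusion is drawn from its call or its place in the count.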

How the data were processed

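Poly(A) RNA of the 9 libraries was extracted with TRIzol, made into TruSeq libraries and read as paired ends on a HiSeq2500, per the labels' protocols. The submitters' processing notes name TopHat2 2.0.13, Bowtie2 2.2.3, Cufflinks 2.2.1 and the mm10 build. The authors deposited FPKM values per gene and library, and a table of comparisons by code with a signed fold, held here as a score, and an adjusted p-value per gene. The files hold no counts, so absolute depth is unknown and no counting interval is given.

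Members and lists were chosen with earlier results of these data known. All tests are limma 3.58.1 (R 4.3.3; lmFit and eBayes with trend) on log2(FPKM + 1), for the 10783 genes at 1 FPKM or more in at least 3 libraries, with all 9 libraries in each fit and Benjamini-Hochberg adjustment over all tested genes. The title fit and the code fit were made separately. Deviations of same-title libraries correlated at 0.26 to 0.883 in 9 of 9 pairs, so the title was used as a block for the code comparisons. The fit was also run on simulated libraries with independent noise, which cannot check it for libraries of a title that deviate together. Alternatives were a pseudocount of 0.1, no filter, median ratio scaling, quantile normalization, a length and GC correction, only the groups compared, the block, and leaving out each library. Values per library are given for members called in any planned comparison, with or without the block, for 5 pairs of related genes and for Sqle, Fasn and Acaca, and other pathway genes are named only where called, and some of those called are not reported here by name. Motifs, coding identity and overlaps were computed with Python 3.11.15 from the reference annotation (GENCODE and RefSeq, GRCm38.p6).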

Additional observations from a re-analysis of the deposited data

Results flagged for a closer look

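The difference between C-20 and NTC in the sterol synthesis arm had opposite signs in 2 title groups. In mean log2(FPKM + 1) over the 18 genes, the library coded C-20 was below the library coded NTC by −0.185 among those titled clone 2, and above it by 1.658 among those titled control. Each value is 1 library against 1, and the difference between them was not tested. The control library coded NTC, which enters the second value, had the lowest level of 25 of 38 members and the lowest epithelial marker sum, and the part of that library in the difference was not tested.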

How the results depend on the processing

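Members called between clone 3 and control numbered 12 in the fit as reported, all higher. They were 3 with no filter, 7 with quantile normalization, 5 with only the groups compared, 5 with the length and GC correction and 24 (23 higher) with the replicate block, which called 3330 of all 10783 tested genes, and 1 to 20 when each library was left out. With the block they were 20 without the control library coded NTC, 31 without the control library coded C-20, 25, 27 and 19 without the clone 2 libraries coded NTC, C-20 and C-26, and 7 without the clone 3 library coded C-20 (7 to 31 over all libraries). Between clone 3 and clone 2 they were 19 as reported, 5 with no filter, 32 with only the groups compared and 29 (27 higher) with the replicate block, which called 3176 genes, and 0 to 32 when each library was left out. With the block they were 33 and 31 without the control libraries coded NTC and C-20, and 13, the lowest, without the clone 2 library coded C-20. Of members not called by title without the block, the block called Ebp and Dhcr7 between clone 3 and control (adjusted p = 0.015 and 0.029) and between clone 3 and clone 2 (0.0071 and 0.013), Tm7sf2 between clone 3 and clone 2 (0.039) and Npc2 between clone 3 and control (0.036), among others. Between clone 2 and control the count was 0 as reported and 3 with the block and without the control library coded NTC. Libraries of the same number in their titles share a code, so the replicate block of a title comparison is the code. Same-numbered deviations correlated at −0.235 to 0.562 over 9 pairs, and 7 of 9 libraries correlated best with their own number. These values do not settle whether the numbers pair the libraries.

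Between C-20 and NTC the count was 0 as reported, 2 with the replicate block and the length and GC correction together, and, with the block, 2 without the control library coded NTC or the clone 2 library coded C-20 and 1 without the clone 2 library coded C-26. Between C-26 and NTC it was 0 as reported, 7 with the replicate block, 10 with the block and the correction together and 1 with the block and without the clone 3 libraries. With the block it was 5, 16 and 2 without the control libraries coded NTC, C-20 and C-26, 1, 11 and 0 without the clone 2 libraries coded NTC, C-20 and C-26, and 8, 2 and 2 without the clone 3 libraries coded NTC, C-20 and C-26. The causes were not tested.

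The sterol minus fatty acid difference between C-20 and NTC was 0.021 to 0.548 when each library was left out. Between clone 2 and control it was −0.262 with the block and without the clone 2 library coded C-20. Of values with no test, the sterol minus fatty acid difference between C-26 and NTC ranged from -0.069 to 0.294 and the median of the fatty acid arm between clone 2 and control from -0.416 to 0.215 over the alternatives. No value called in the fit as reported changed sign; Ggps1, called lower in clone 3 than in control with the block only (-0.77), stood at 0.14 with the length and GC correction. Between clone 3 and control the median of all genes was 0.087 as reported and 0.122 with quantile normalization. The FPKM values carry no depth, so the precision of low genes such as Soat2 is unknown.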
